A study of Mus musculus with 188 samples.

Results

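The collagens are the proteins of the extracellular matrix built around a triple helix of 3 chains, each chain from a gene of its own. Here the family comprised every gene row whose identifier maps to a symbol of the form Col, a number, the letter a and a number, which gave 44 of the 49585 genes counted. The genes were measured in single cells of mouse tail epidermis at postnatal day 20, 94 cells on each of 2 plates, in a study of heterogeneity and differentiation of epidermal cells. The mice were Lrig1-CreERT2/RosaYFP, in which the Lrig1 gene drives an inducible Cre that switches on a yellow fluorescent reporter. Cells were sorted as Cd34-/Itga6+/YFP-, so cells marked through Lrig1 were removed by the gate, and the labels call the remainder basal cells of the interfollicular epidermis. All cells form 1 group with no untreated or mutant counterpart. The labels name no animal, so values are spreads over cells of what counts as 1 sample, and nothing was tested between cells.

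Basal keratinocytes sit on a basement membrane and hold on to it through hemidesmosomes. In that junction a membrane-spanning collagen, Col17a1, works with the integrin pair of Itga6 and Itgb4 and the plakin proteins inside the cell. Beneath it, type IV collagen forms a network, type XVIII collagen is a basement membrane proteoglycan, and anchoring fibrils of type VII collagen tie the basement membrane to the dermis. The fibrillar collagens of the dermis, such as those of Col1a1, Col1a2 and Col3a1, are made mostly by fibroblasts. A basal cell that begins to differentiate turns on Krt10, the keratin of the suprabasal layers.

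The start regions of 5 collagen genes are shown because they represent the most abundant member and the neighbouring type IV pairs, of which Col4a5 and Col4a6 were transcribed while Col4a1 and Col4a2 were not. Each runs 5′ to 3′ on the strand of the gene, from 250 bases before to 50 bases after the RefSeq start on GRCm38.p6. Capitals mark TATAAA, the letters searched for a TATA box, and GGGCGG, those of a GC box, on both strands, so that a GC box on the other strand reads CCGCCC.
Col17a1: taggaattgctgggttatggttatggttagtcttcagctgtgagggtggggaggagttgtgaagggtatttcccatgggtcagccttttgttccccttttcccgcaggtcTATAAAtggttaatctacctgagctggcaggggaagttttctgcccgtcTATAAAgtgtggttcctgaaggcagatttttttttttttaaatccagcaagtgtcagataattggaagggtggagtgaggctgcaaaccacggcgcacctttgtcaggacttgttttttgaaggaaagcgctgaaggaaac
Col4a5: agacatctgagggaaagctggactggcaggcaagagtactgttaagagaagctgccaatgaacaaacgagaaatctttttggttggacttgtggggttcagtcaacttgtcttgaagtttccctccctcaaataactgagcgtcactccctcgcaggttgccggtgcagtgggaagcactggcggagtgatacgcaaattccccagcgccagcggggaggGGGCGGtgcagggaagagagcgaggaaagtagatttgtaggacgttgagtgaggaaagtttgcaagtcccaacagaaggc
Col4a6: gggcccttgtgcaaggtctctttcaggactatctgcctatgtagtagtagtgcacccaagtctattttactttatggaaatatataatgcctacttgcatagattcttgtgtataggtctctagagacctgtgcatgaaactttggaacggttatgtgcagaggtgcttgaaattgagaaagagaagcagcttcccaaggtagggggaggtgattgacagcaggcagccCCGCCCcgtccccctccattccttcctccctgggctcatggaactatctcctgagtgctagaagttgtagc
Col4a1: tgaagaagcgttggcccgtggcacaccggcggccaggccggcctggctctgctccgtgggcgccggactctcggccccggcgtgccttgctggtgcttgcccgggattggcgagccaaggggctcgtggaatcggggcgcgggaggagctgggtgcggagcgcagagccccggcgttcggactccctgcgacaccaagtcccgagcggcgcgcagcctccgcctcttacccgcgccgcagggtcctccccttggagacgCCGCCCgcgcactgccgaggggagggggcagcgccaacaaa
Col4a2: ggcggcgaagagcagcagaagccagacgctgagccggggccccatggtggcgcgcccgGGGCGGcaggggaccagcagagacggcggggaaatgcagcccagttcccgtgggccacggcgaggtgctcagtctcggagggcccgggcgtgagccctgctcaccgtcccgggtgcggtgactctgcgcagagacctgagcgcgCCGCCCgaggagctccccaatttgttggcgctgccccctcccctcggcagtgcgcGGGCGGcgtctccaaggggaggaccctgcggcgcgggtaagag
These windows are chr19:47691993-47692292 (minus strand) for Col17a1, chrX:141475169-141475468 (plus strand) for Col4a5, chrX:141474027-141474326 (minus strand) for Col4a6, chr8:11312777-11313076 (minus strand) for Col4a1 and chr8:11312555-11312854 (plus strand) for Col4a2. The Col17a1 window held 2 matches of the TATA box letters, 140 and 91 bases before the start, and no GC box. Each box named here is a match of letters, and its use by the gene was not tested. A TATA box was found in 13.6% of all 32851 windows of this length and a GC box in 35.7%. The Col4a5 window held 1 GC box, 30 bases before the start, and the Col4a6 window held 1, 21 bases before the start. The starts of Col4a5 and Col4a6, which point away from each other, lie 1343 bases apart, and their windows share 0 bases. The starts of Col4a1 and Col4a2 lie 21 bases apart and share 78 bases of window. The Col4a1 window held 1 GC box, 9 bases after the start, and 37 CpG dinucleotides, and the Col4a2 window held 3 GC boxes and 33 CpG. The Col4a1 box is the same bases as the Col4a2 box 7 bases after its start, read on the other strand. CpG in the shared bases are counted in both windows. The windows of Col17a1, Col4a5 and Col4a6 held 5, 11 and 3 CpG, beside a median of 7 over all windows. RefSeq windows matched 35 of the 44 members, among them 6 of the 7 transcribed members (not Col12a1). A GC box was in a window of 5 of these 6 and of 17 of the 29 others, and a TATA box in 1 of the 6 and 4 of the 29. The AP-1 letters TGANTCA were in a window of 0 of the 6 and 1 of the 29 (Col6a1), beside 7.81% of all windows.

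Depth ran from 79868 to 1093805 counts per cell (median 369991). Counts were divided by that total and scaled to a sum of 1000000 (CPM), so that 1 read was worth 2.70 CPM at the median depth, 12.5 CPM in the shallowest cell and 0.914 CPM in the deepest. Reads also leaked between wells of the pooled libraries, mainly along the lettered row, and the estimated stray share of a cell's reads ran from 3.31% to 56.97%, with a median of 10.4%. Shares of cells at 10 CPM are therefore given beside the number of cells in which a gene was also above 3 times the level expected from other wells. Markers of the basal label were read in all cells, and differentiation genes were read as well. The 6 basal keratinocyte markers summed to between 3164 and 114239 CPM, with a median of 63578. The 13 early differentiation genes, which include Krt10, summed to between 3446 and 110657 CPM, with a median of 11589, and Krt10 was above the stray threshold in 31.4% of cells. Lum, Pdgfra, Pdgfrb, Dpt and Twist2, 5 of the 10 fibroblast markers, had no read in any cell. In contrast, 3 of the 10 were at 10 CPM or more in at least 10% of cells, beside 18.8% of all genes. The whole list summed to between 0 and 553 CPM, with a median of 10.7, with Dcn at a mean of 25.6 CPM. The lists for endothelial cells, melanocytes, Langerhans cells, T cells, Schwann cells and smooth muscle each had a median sum of 0 CPM, with highest sums of 220, 598, 142.3, 1.18, 8.57 and 36.5 CPM. The list of hair follicle genes ran from 6.80 to 7066 CPM with a median of 191, mostly from Krt17 and Postn. Of its 6 genes, 3 were at 10 CPM or more in at least 10% of cells. Its member Cd34 had no read, but cells were sorted as Cd34-, so this does not bear on other follicle cells.

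Col17a1 led the collagens in these basal cells, and the transcribed share of the family was close to that of all genes. By the rule of 10 CPM or more in at least 10% of cells, 7 of the 44 members were transcribed, which is 15.9% of the family beside 18.8% of all genes. Ordered by mean CPM, they were Col17a1, Col7a1, Col18a1, Col16a1, Col4a5, Col4a6 and Col12a1. All 7 also reached the rule when only cells above 3 times the expected stray level were counted. No read in any cell was found for 15 members, 34.1% of the family beside 58.4% of all genes, and 22 members had some reads but fell below the rule. The family took 219037 reads in all. Col17a1 held 82.1% of them, the 7 transcribed members together 99.3%, and the other members 1559 reads or 0.712%.

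**Figure D1:**
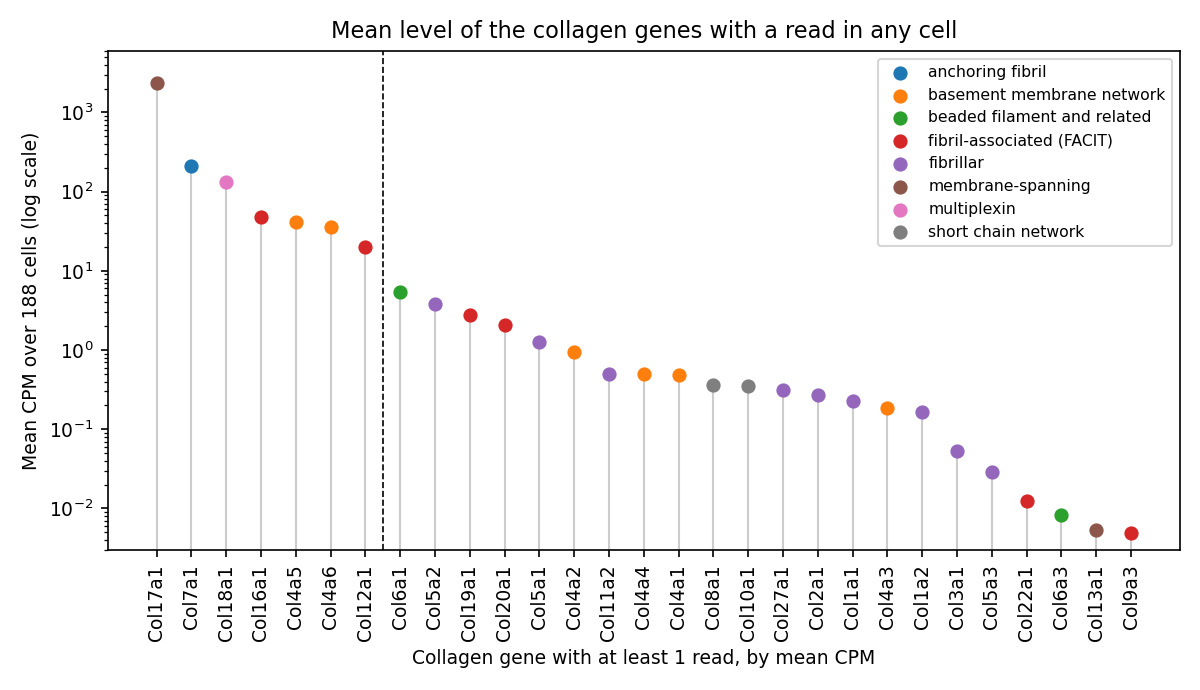
Mean CPM over all cells (log scale) of each collagen gene with at least 1 read in any cell, ordered by mean and coloured by structural class. The dashed line parts the 7 transcribed members, from Col17a1 at 2365 CPM to Col12a1 at 20.01 CPM, from the members below the rule, the highest of which is Col6a1 at 5.35 CPM.

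The transcribed members are given by structural class, in classes of at most 11 members. Over all genes, 18.8% met the same rule, and such small counts were not compared with it. Of the 4 membrane-spanning members, Col17a1 was transcribed, Col13a1 had 1 read, and Col23a1 and Col25a1 had none. The single anchoring fibril gene, Col7a1, held 7.52% of the family's reads. Of the 2 multiplexins, Col18a1 held 4.54% of the reads and Col15a1 had no read. Of the 6 basement membrane network genes, Col4a5 and Col4a6 were transcribed, the class held 2.84% of the reads, and each of its members had at least 1 read. Of the 9 fibril-associated members, Col16a1 and Col12a1 were transcribed and the class held 2.55% of the reads. None of the 11 fibrillar members, the 7 beaded filament members, the 3 short chain members or Col26a1 met the rule. Their classes held 0.279%, 0.184%, 0.0269% and 0% of the reads.

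Col17a1 encodes the membrane-spanning collagen of the hemidesmosome and was read in every cell. The gene (ENSMUSG00000025064.14) lies at chr19:47646344-47692094 on the minus strand of GRCm38 in GENCODE M21, as do the annotations of the following members. Its level ran from 177.4 to 6062 CPM with a median of 2312, and the mean was 2365 ± 1021 CPM (SD over the cells of both plates). The plate means were 2371 and 2359 CPM. All cells were at 10 CPM or more (exact Clopper-Pearson 95% interval 98.1% to 100%), and 92.6% of cells (87.8% to 95.9%) were also above the stray threshold. By mean it ranked 32 of 49585 genes.

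Col7a1, the chain of the anchoring fibrils, varied more from cell to cell. The gene (ENSMUSG00000025650.12) lies at chr9:108953586-108984875 on the plus strand. Its level ran from 1.69 to 1239 CPM with a median of 147.8 and a mean of 211 ± 217 CPM, and its plate means were 199 and 223 CPM. It was at 10 CPM or more in 97.3% of cells (93.9% to 99.1%) and above the stray threshold in 64.9% (57.6% to 71.7%).

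Col18a1, whose collagenous proteoglycan lies in the basement membrane and releases endostatin, was the next in order. The gene (ENSMUSG00000001435.14) lies at chr10:77052178-77166548 on the minus strand. Its level ran from 1.01 to 706 CPM with a median of 78.1 and a mean of 130.4 ± 140.9 CPM, and its plate means were 143.3 and 117.6 CPM. It was at 10 CPM or more in 87.2% of cells (81.6% to 91.6%) and above the stray threshold in 61.2% (53.8% to 68.2%). For Col7a1 and Col18a1 the SD was close to or above the mean, while for Col17a1 it was well below it.

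The remaining 4 were low or unread in most cells and high in a minority. Col16a1 (ENSMUSG00000040690.15, chr4:130047840-130099283, plus strand), a fibril-associated collagen, ran from 0 to 499 CPM with a median of 8.34 and a mean of 48.02 ± 82.05, and 72 cells (38.3%) were above the stray threshold. Col4a5 (ENSMUSG00000031274.16, chrX:141475385-141689234, plus strand) ran from 0 to 390 CPM with a median of 11.2 and a mean of 40.8 ± 65.4, and 82 cells (43.6%) were above the threshold. Col4a6 (ENSMUSG00000031273.16, chrX:141165403-141474076, minus strand), whose chain joins that of Col4a5 in type IV collagen, ran from 0 to 398 CPM with a median of 5.78 and a mean of 35.8 ± 70.5, and 57 cells (30.3%) were above it. Col12a1 (ENSMUSG00000032332.17, chr9:79598991-79718831, minus strand), a fibril-associated collagen, ran from 0 to 191 CPM with a median of 3.54 and a mean of 20.01 ± 39.6, and 48 cells (25.5%) were above it. In each of the 4 the mean exceeded the median by a wide margin. Their plate means were 58.1 and 37.9 CPM for Col16a1, 33.9 and 47.7 for Col4a5, 29.2 and 42.4 for Col4a6, and 14.7 and 25.4 for Col12a1, all differing by less than 1 SD over cells. By the rates used for all genes, between 9.43% and 9.67% of the reads of each of the 7 genes was expected to be stray. That share is set by the rates and the layout of wells and was not measured for each gene. At the depth of these cells, a cell with no read cannot be told from a cell with a low level.

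**Figure D2:**
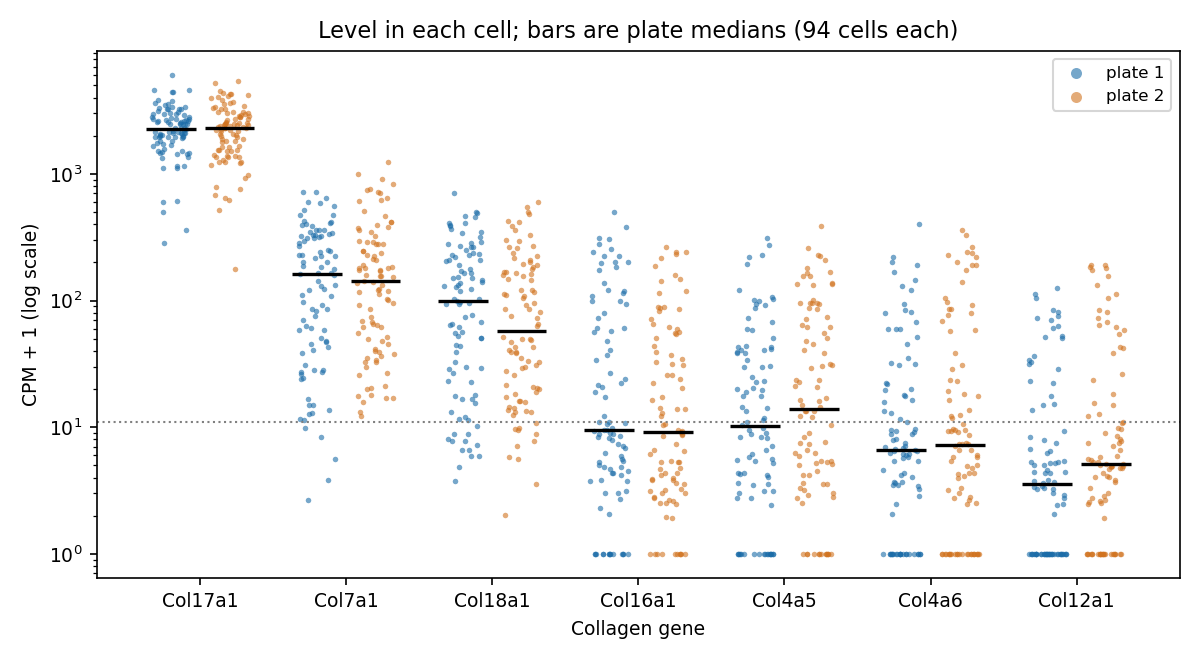
Level of the 7 transcribed collagens in each cell, as CPM + 1 on a log scale, by plate; bars are plate medians, the dotted line marks 10 CPM, and horizontal scatter within a plate has no meaning. Col17a1 is the only one of the 7 without a cell under 177.4 CPM, and Col16a1, Col4a5, Col4a6 and Col12a1 each include cells with no read.

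Compared per kilobase of exon, the order was the same as by CPM. Mean CPM per kilobase was 393 for Col17a1, 20.5 for Col7a1, 18.6 for Col18a1, 7.11 for Col16a1, 6.08 for Col4a5, 4.49 for Col4a6 and 1.31 for Col12a1. Neighbours in this order below Col17a1 differ by less than their spread over cells. Of the 7 genes, Col7a1 shares exon sequence with another gene model, 36 bases with Mir711, which had no read, and the other 6 overlap other models in 0 exon bases. A cell was above the stray threshold for 0 of the 7 members in 4 cells, for 1 in 16, 2 in 23, 3 in 44, 4 in 48, 5 in 36, 6 in 15 and all 7 in 2. Most cells thus carried a subset of the 7.

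Type IV collagen was represented by the pair of X-linked genes and not by the pair on chromosome 8. Col4a1 and Col4a2, whose chains make the most widespread type IV collagen, had means of 0.486 and 0.937 CPM. Col4a1 was read in 6 cells and reached 10 CPM in 3, with a highest value of 43.02. Col4a2 was read in 7 cells and reached 10 CPM in 3, with 84.5 CPM from 26 reads in the highest. Only 1 cell had both at 10 CPM or more, and 5 cells had either. By contrast, 110 cells had Col4a5 or Col4a6 above the stray threshold. Col4a3 and Col4a4, the remaining type IV genes, had means of 0.188 and 0.492 CPM.

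The dermal fibrillar collagens were close to absent. Col1a1 had 9 reads in 2 cells (mean 0.226 CPM, highest 28.6), Col1a2 had 14 reads in 2 cells (mean 0.164, highest 23.9), and Col3a1 had 3 reads in 1 cell (mean 0.0536, highest 10.1). No cell had both Col1a1 and Col1a2 at 10 CPM. Col5a2, a chain of type V collagen, reached 10 CPM in 14 cells, with a highest value of 172.1 CPM, and Col5a1, its partner chain, in 2 cells, with 167.9 CPM in the highest. Both were at 10 CPM in 1 cell. A fibrillar collagen was at 10 CPM or more in 22 cells, 9 on plate 1 and 13 on plate 2. The fibroblast list ran from 0 to 156.3 CPM in these 22 cells, with a median of 6.23, and from 0 to 553 CPM in all other cells, with a median of 11.1. Lum, Pdgfra, Pdgfrb, Dpt and Twist2 had no read in any cell, so they could not tell the sets apart. Col11a1 and Col24a1 were the fibrillar members with no read.

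Of the other members below the rule, Col6a1, Col5a2, Col5a1, Col20a1 and Col4a2 reached the highest values in a single cell. Col6a1, a chain of type VI collagen, reached 10 CPM in 11 cells and 215 CPM in the highest, with a mean of 5.35 CPM. The type VI collagen monomer also needs the chains of Col6a2, which had 0 reads, and of Col6a3 or a relative, and Col6a3 had 1 read. Col19a1 reached 10 CPM in 14 cells with a highest value of 81.3, and Col20a1 in 8 cells with a highest value of 129.1 CPM. Both encode fibril-associated collagens. In all, 16 of the 22 members with some reads reached 10 CPM in at least 1 cell, and 6 never did. At least 1 of the members below the rule was at 10 CPM in 56 cells, with 1 such member in 43 cells, 2 in 12 and 3 in 1. Most of these values therefore came from separate cells.

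The 15 members with no read were Col6a2, Col6a4, Col6a5, Col6a6, Col28a1, Col8a2, Col9a1, Col9a2, Col11a1, Col14a1, Col15a1, Col23a1, Col24a1, Col25a1 and Col26a1. They include 5 of the 7 beaded filament genes. A count of 0 over all cells still allows up to 1.596% of cells to carry a read by the limit of 3 counts, or 1.94% by the upper bound of the exact 95% interval, and both cover counting error only. A level under that of 1 read was not detectable at this depth.

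Next, the level of each transcribed collagen was compared with Krt10 CPM, across cells and within each plate. Cells share library preparation, depth and carried-over reads, so correlations are descriptions over the cells of both plates. Krt10 had a median of 882 CPM and a mean of 4864 ± 8809, and was above the stray threshold in 59 cells. A gene was counted as related if Spearman's rho was 0.3 or more in size, with 1 sign, on each plate. Col17a1 was counted as lower with higher Krt10, and the other 6 were not counted in either direction. The background was 0.471% of 9344 genes counted as lower and 0.631% as higher with Krt10.

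Between Col17a1 and Krt10, rho was -0.45 over all cells, -0.33 on plate 1 and -0.57 on plate 2, and Pearson's r of log2(CPM + 1) values was -0.58. The other values of rho were -0.28 for Col18a1, -0.25 for Col16a1, -0.25 for Col7a1, -0.12 for Col4a5, -0.092 for Col12a1 and -0.019 for Col4a6. All 7 values were below 0 over all cells, where 52.1% of all genes tested had a rho below 0. The 7 were also below 0 on each plate, for which no share of all genes was computed. The median over the 7 was -0.25, beside -0.0046 over all genes tested. The summed family had a rho of -0.48 (-0.36 and -0.60 by plate), and without Col17a1 the sum had -0.37 (-0.34 and -0.42). Col7a1, Col18a1 and Col16a1 lay outside the range that holds the middle 90% of genes, -0.19 to 0.17, over all cells, while Col4a5, Col12a1 and Col4a6 lay inside it.

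**Figure D3:**
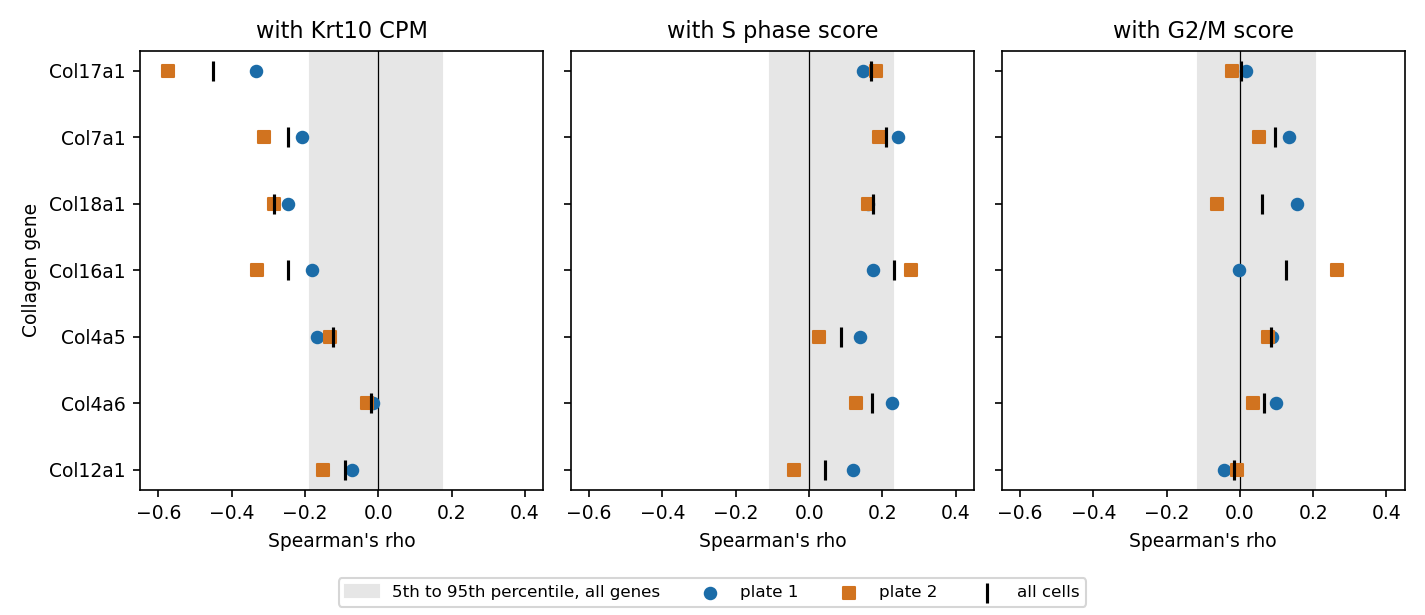
Spearman's rho of each transcribed collagen with Krt10 CPM, the S phase score and the G2/M score, over all cells (bar) and on each plate of 94 cells (circle and square); the grey band holds the 5th to 95th percentile of all genes tested. The band was taken from values over all cells, so it does not apply to the plate values. Over all cells, Col17a1, Col7a1, Col18a1 and Col16a1 lie outside the band with Krt10. With the cycle scores, all 7 values over all cells lie inside or at the edge of the band.

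The relation was seen among cells in which Krt10 was clearly above stray reads. In the 59 cells with Krt10 above the stray threshold (421 to 45289 CPM, median 11914), rho with Krt10 was -0.60 for Col17a1 and -0.62 for the family sum. In the other cells (185.4 to 4324 CPM, median 696) it was -0.029 and -0.054. For Col18a1 the values were -0.29 and -0.073, for Col16a1 -0.25 and -0.036, for Col7a1 -0.24 and -0.043, and for Col4a5 -0.24 and 0.064. Col4a6 had 0.095 and 0.13, so its levels did not go down with Krt10 in either set. This split was chosen after the values were seen, and the smaller set holds 25 cells of plate 1 and 34 of plate 2. By the split itself, Krt10 in the other cells was not above the stray threshold. A rho near 0 there therefore cannot show that a relation is absent.

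**Figure D4:**
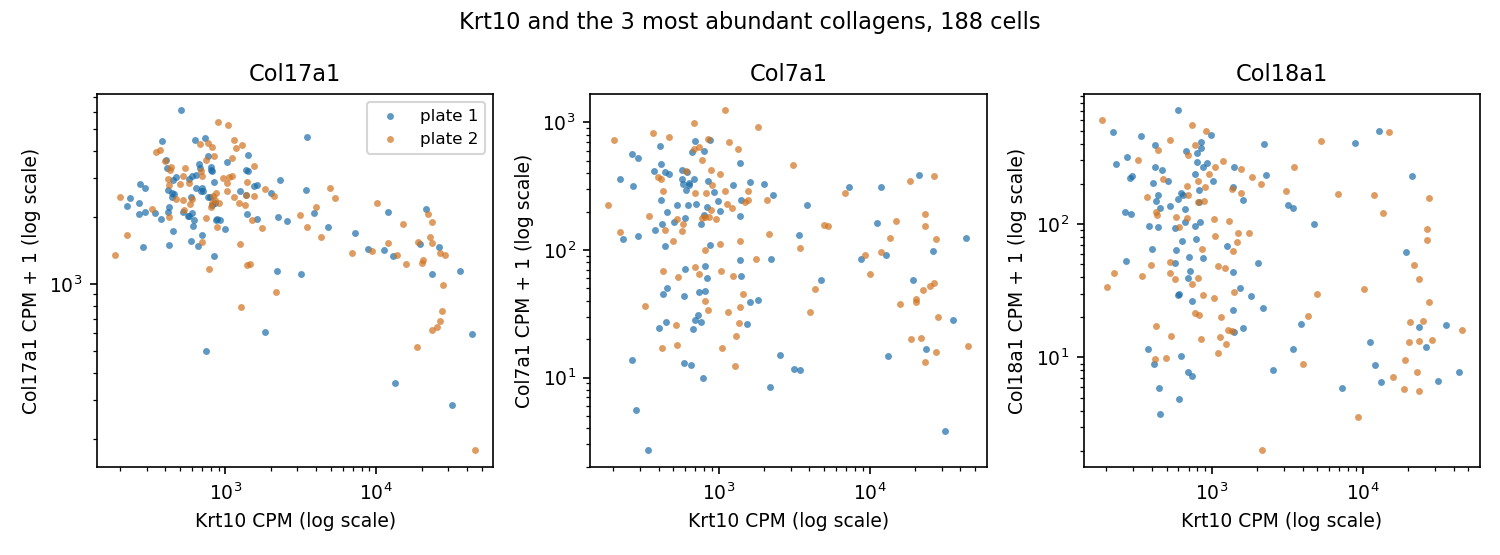
CPM + 1 of Col17a1, Col7a1 and Col18a1 against Krt10 CPM, both on log scales, 1 point per cell coloured by plate. The cells beyond 2007 CPM of Krt10 include the one with the lowest Col17a1 level, 177.4 CPM; Col7a1 and Col18a1 spread widely at every Krt10 level.

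The size of the difference was read from the cells at the ends of the Krt10 range, 23 cells per plate at each end. The lowest 25% of cells had at most 687 CPM of Krt10 and the highest 25% at least 2007. Col17a1 had a mean of 2662 ± 725 CPM at the low and 1500 ± 780 CPM at the high end (SD over 46 cells), 1.77 times as much at the low end. The plates gave 2502 against 1720 CPM and 2821 against 1280 CPM. Col7a1 had 266 against 113.2 CPM (2.35 times), Col18a1 157.4 against 84.8 (1.86 times) and Col16a1 58.4 against 20.3 (2.88 times), with the low end higher on both plates. Col12a1 had 25.6 against 12.9 CPM (1.99 times). Col4a5 had 46.1 against 30.1 CPM over both plates, but 41.1 against 42.97 on plate 2. Col4a6 had 44.3 against 11.4 CPM, yet medians of 5.08 and 6.21, so that its difference in means lay in a few high cells. The SDs over cells overlapped between the ends for all 7 genes.

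**Figure D5:**
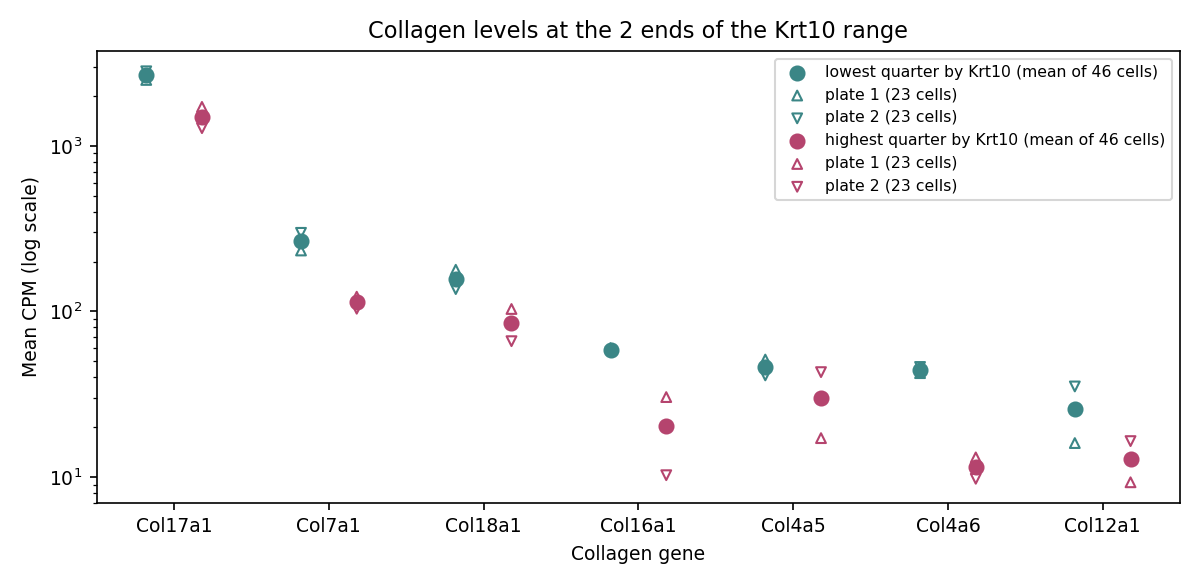
Mean CPM (log scale) of the 7 transcribed collagens in the lowest and the highest 25% of cells by Krt10 CPM, filled circles over 46 cells and open triangles for the 23 cells of each plate; SDs over cells are given in the text. The mean of each gene is lower at the high Krt10 end, with Col4a5 on plate 2 as the exception at 41.1 against 42.97 CPM.

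The share of cells above the stray threshold moved the same way. Of 46 cells at each end, Col17a1 was above it in 46 at the low and 39 at the high end, Col7a1 in 36 and 22, Col18a1 in 34 and 20, and Col16a1 in 24 and 7. For Col4a5 the numbers were 24 and 13, for Col4a6 16 and 8, and for Col12a1 16 and 7. The low end had a median depth of 545051 counts and a median stray share of 8.15%, and the high end 389560 counts and 9.64%, and their part in these counts was not tested. With total counts taken out by a partial rank correlation, rho of Col17a1 with Krt10 was -0.48.

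The scaling mattered for this comparison. CPM is a share of a cell's reads, and when ERCC spike-in counts replaced the total for collagens and Krt10 alike, rho was -0.086 for Col17a1 and -0.097 for the family, and 0 of 7 members were counted. The median rho of all genes then moved from -0.0046 to 0.10, and all 7 members remained below that median. Krt10 per ERCC count had a rho of 0.45 with a cell's total gene count per ERCC count, beside 0.091 for Krt10 CPM. With ERCC scaling of the collagens alone, a choice made after seeing this, rho was -0.37 for Col17a1 and -0.39 for the family, and Col17a1 was again counted. A lower share of reads and fewer transcripts per cell thus cannot be told apart for the collagens from CPM alone.

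The S phase score, the mean z score of 30 DNA replication genes, ran slightly upward with most collagens. The values of rho were 0.23 for Col16a1, 0.21 for Col7a1, 0.17 for Col18a1, Col4a6 and Col17a1, 0.086 for Col4a5 and 0.045 for Col12a1. Of the 7 members, 0 were counted, beside a background of 1.27% of 9345 genes counted as higher and 0.118% as lower. The median over the 7 was 0.17, beside 0.055 over all genes tested. Without Col17a1 the summed family had a rho of 0.30 (0.33 and 0.24 by plate), and with it 0.20. Between the lowest and highest 25% of cells by the S score, mean CPM was 2035 and 2411 for Col17a1, 167.3 and 268 for Col7a1, 100.97 and 163.3 for Col18a1, 25.95 and 55.2 for Col16a1 and 21.1 and 48.6 for Col4a6. Col4a5 (51.05 and 49.8) and Col12a1 (22.7 and 21.4) went opposite ways on the plates. Col12a1 had 12.9 and 22.1 CPM on plate 1 and 32.6 and 20.7 on plate 2, and Col4a5 had 35.2 and 46.99 on plate 1 and 66.9 and 52.7 on plate 2. The S score itself had a rho of -0.37 with Krt10, and the part of each in the other's relation to collagens was not tested. With ERCC scaling throughout, the family had a rho of 0.47 with the S score and 3 members were counted. The share of all genes counted under that scaling was not computed. The median rho of all genes then moved from 0.055 to 0.16, and 1 of the 7 members was below that median. The S score scaled this way had a rho of 0.47 with a cell's total gene count per ERCC count, beside 0.17 for the score from CPM.

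With the G2/M score, over 35 mitosis genes, the collagens showed little relation. The values of rho ran from -0.017 for Col12a1 to 0.13 for Col16a1, with 0.0034 for Col17a1, and 0 of 7 members were counted, beside a background of 0.77% of genes counted as higher and 0.0% as lower. The family sum had a rho of 0.019, and the median over the 7 was 0.066 beside 0.037 over all genes tested. Cells with at least 25% of the G2/M genes at 10 CPM numbered 76, 38 on each plate, and 63 cells lay between 20% and 30%, near that limit. In pooled reads, their family level was 0.969 times that of the other cells. Col16a1 had 60.9 CPM in the pooled reads of these cells and 37.03 in the others, while its rho with the score was -0.0032 on plate 1 and 0.26 on plate 2. The median depth was 263165 counts in these cells and 409430 in the others.

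Among themselves the 7 members were weakly related. Over the 21 pairs, rho ran from -0.12 to 0.34 with a median of 0.13, and 19 were above 0. Col17a1 and Col7a1 had the highest value, 0.34 (0.28 and 0.41 by plate), followed by Col17a1 and Col18a1 with 0.26. The lowest was between Col16a1 and Col12a1, -0.12. Col4a5 and Col4a6, the neighbouring partner genes, had a rho of 0.13 (0.19 and 0.095 by plate). Of the cells, 29 had both above the stray threshold, 53 had Col4a5 alone, 28 had Col4a6 alone and 78 had neither. Most cells with either gene above the threshold therefore showed 1 of the pair, and at this depth a low level of the other cannot be told from none.

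Beyond the family, the genes most like the 3 most abundant members were ranked by rho on the plate nearer to 0. For Col17a1 they were Slc6a6 (0.55), which encodes a taurine transporter, Itga6 (0.50), Dst (0.47), Fgfr2 (0.46) and Tns1 (0.46). Itga6 encodes the integrin chain used in the sort, and Dst encodes the hemidesmosomal plakin. For Col18a1 they were Lamb3 (0.45), a laminin-332 chain, S100a6 (0.42), Celsr1 (0.34), Fgfr2 (0.31) and Itgb4 (0.31). For Col7a1 the values were lower, with Lamb3 (0.34), Slc6a6 (0.31), Zfp318 (0.28), Jag2 (0.28) and mt-Co1 (0.27). The measure was taken over all cells among 9345 genes.

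Cell-to-cell variation was compared with that of the ERCC spike-ins at the same mean. Of the 3 members with a mean of at least 50 CPM, Col17a1 had a squared coefficient of variation 2.50 times the spike-in trend on the plate with the smaller ratio. Col7a1 had 1.91 times and Col18a1 1.75 times. At the limit of 2 times, 1 of 3 members was counted as variable, beside 15.0% of the 3685 genes at this level. Scaling the spike-ins by gene totals, chosen after seeing the data, left 0 of 3.

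Of the 18 listed genes that modify and fold collagen chains, 11 were transcribed, beside 18.8% of all genes. The 11 were led by P4hb (430 ± 256 CPM), a subunit of prolyl 4-hydroxylase, Ppib (162.96), P3h4 (159.4) and Crtap (106.1). The catalytic subunit P4ha1 had 39.9 CPM and the lysyl hydroxylase Plod3 29.8 CPM, while Plod2 had 0.044. Serpinh1, the collagen chaperone of the endoplasmic reticulum, had 10.4 CPM. With Krt10, 0 of the 11 were counted in either direction and the median rho was -0.094. Serpinh1 had a rho of -0.30, with -0.26 and -0.33 by plate.

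Export and extracellular processing was covered in part. Of 17 listed genes 16 were found, and 5 were transcribed, beside 18.8% of all genes. Sparc, a collagen-binding matricellular protein, had 773 ± 633 CPM. It was the only 1 of the 5 counted as lower with Krt10 (rho -0.48), beside 0.471% of all genes tested. Bmp1, a procollagen C-proteinase, had 70.7 CPM, Mia3, needed for collagen export, 51.9, and Adamts14, a procollagen N-proteinase, 26.6. Creb3l2, a transcription factor of the secretory pathway, had 8.87 CPM, and Pcolce, which enhances Bmp1, 3.10. Lox, Loxl1, Adamts2, Adamts3 and Pxdn had no read. Of the 10 collagen receptors 4 were transcribed, beside the same 18.8% of all genes. Among them were Itgb1 (325 ± 303 CPM), Ddr1 (172.4) and Itga2 (18.3), the chain that pairs with Itgb1 as a collagen receptor. Itgb1 was counted as lower with Krt10 (rho -0.46), Ddr1 had a rho of 0.031, and Mrc2, an endocytic collagen receptor at 23.6 CPM, had 0.025. Ddr2 and Itga11 had means of 0.516 and 0.075 CPM, and Itga1 and Itga10 had no read.

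The hemidesmosome and anchoring partners were the list with the lowest median rho with Krt10 of the 5 collagen-related lists, -0.34. Of 12 genes 10 were transcribed, beside 18.8% of all genes. Of the 10, 4 were counted as lower, beside 0.471% of all genes tested: Lamb3 (rho -0.54), Plec (-0.51), Itga6 (-0.48) and Itgb4 (-0.42). Itga6 is also a marker on which the cells were sorted. Dst, at 1675 ± 777 CPM, had -0.34, and Lama3, at 180.7 CPM, had -0.28, with 1 plate each nearer to 0 than 0.3. These genes and the list were chosen for what they do in this tissue, with earlier results of these cells known. Of the basement membrane linkers, Nid1 had no read, Nid2 had 0.028 CPM and Hspg2 6.08 CPM. Of the 11 proteases that cut collagen or shed it from the membrane, 5 were transcribed, beside 18.8% of all genes. They were Mmp2 (100.3 CPM), Mmp14 (71.8), Adam10 (66.2), Adam17 (36.2) and Adam9 (22.5), while Mmp13 had 4.37. Of the 5, 0 were counted with Krt10, and their median rho was 0.055. For reference, the basal keratin Krt14 had a rho of -0.52 with Krt10, the replication gene Mcm5 -0.38 and the proliferation marker Mki67 -0.0055.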

How the data were processed

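Full-length cDNA libraries (Smart-seq2) of sorted cells, 94 on each of 2 plates, 1 cell per sample, were analysed. The authors deposited raw counts of reads for each gene. GRCm38, HTSeq 0.6.0, STAR 2.5.2b and cutadapt 1.13 appear in the submitters' processing notes, with no parameters, and no source used here says whether counting used strand. Symbols matched 49326 identifiers, and 92 ERCC rows were kept apart. Without molecular identifiers, counts include amplified copies, so intervals cover counting error only.

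CPM used each cell's total over genes, and Pearson's r used log2(CPM + 1). Scores are mean z scores of log2(CPM + 1) of the list genes that reach 10 CPM in 5% of cells or more. Stray reads were estimated after the data were seen, from 60 genes with few high source wells. The rates were 33.4 per 10000 source reads in the same lettered row of either plate, 13.7 in the same column of a plate and 0.710 elsewhere. The row and column rates are medians over those genes. The rate elsewhere is their 10th percentile, a low setting that makes the threshold easier to exceed. The threshold counted as exceeded above 3 times the expected reads. The highest and lowest 25% of cells were taken within plates. The members and lists were chosen with earlier results of these data known. Named are the transcribed members, Col1a1, Col1a2, Col3a1, Col4a1 and Col4a2, the 5 others highest in a cell, the 5 genes most like each of the 3 leading members, and from each list up to 6 by mean CPM with any counted with Krt10, and Krt14, Mcm5 and Mki67 as references; genes with no or few reads were added after their values were seen. Of these, 1 list gene is not reported here. The count rule was tested on simulated data of 9344 genes for the Krt10 comparison. A planted log2 slope of 1 per SD was recovered in 7 of 7 genes averaging at least 200 CPM and in 29 of 93 below, a slope of 0.5 in 6 of 7 and 5 of 93, and 0 of 9144 unrelated genes were counted, so a low member that was not counted may still vary with Krt10. No doublet caller was run, since 1 cell was sorted per well. Python 3.11.15 with scipy 1.17.1 and, for trimmed mean scaling, edgeR 4.0.16 were used.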

Additional observations from a re-analysis of the deposited data

How the results depend on the processing

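The number of transcribed members was 7, and 7 to 10 under the alternatives, with 10 at a limit of 1 read and 8 after thinning or on plate 1 alone. Of the alternative values for the main comparisons, 14 moved by 0.1 or more in rho or 1.5 times or more in a count, and no counted relation changed sign. The family's rho with the G2/M score, 0.019 and near 0, was -0.050 with trimmed mean scaling, -0.022 on plate 2 and -0.028 with the number of list genes in place of the score. ERCC scaling moved most. It gave a rho with Krt10 of -0.097 for the family and -0.073 without Col17a1, with 0 members counted, and a rho with the S score of 0.47 and 0.46, with 3 members counted. With the G2/M score it gave 0.22 and 0.29. ERCC scaling of the collagens alone gave the family 0.32 with the S score. Subtracting the expected stray reads left 2 members counted with Krt10. For these alternatives the share of all genes counted was not computed, so their counts of members have no background. By plate, the family's rho with Krt10 was -0.36 and -0.60, and on plate 2 the sum without Col17a1 had 0.012 with the G2/M score. Scaling ERCC counts by gene totals left 0 members counted as variable. The cause of these moves was not tested. Depth limits the 4 lower members most, since 1 read is worth 12.5 CPM in the shallowest cell. No paired analysis was possible because there is 1 group, and no replicate was left out because the labels name no animal.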
